A study of Rattus norvegicus with 8 samples.

Results

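H19 and 9 imprinted growth genes were described in perfused rat liver: the noncoding RNAs H19 and Meg3, the ligand genes Igf2 and Dlk1, the receptor gene Igf2r, the adaptor gene Grb10, the cell cycle inhibitor gene Cdkn1c, the transcription factor genes Plagl1 and Peg3, and Mest. A member was counted as measured where a probe set carried its symbol as the only gene symbol in the platform annotation. Where a gene had several, the probe set was selected on the highest mean over the 8 arrays, and H19 itself was chosen by its known difference between the groups. Of the 10 genes 9 were measured, with 10 probe sets, among 14506 named genes and 27596 probe sets in all. Peg3 is not analysed here. H19 has 2 probe sets, and both are given. Each of the other members has 1 probe set.

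The livers came from male rats of the outbred Wistar strain, aged 6 to 10 weeks. An isolated liver was perfused either with Krebs-Henseleit buffer of 305 mosm/L (normoosmotic, 4 samples) or with the same kind of buffer at 225 mosm/L (hypoosmotic, 4 samples), and all 8 samples carry the time point of 120 min. Water enters cells in a buffer of low osmolarity and swells them. The values are the deposited log2 expression values of 1-colour Affymetrix arrays, and every change is the hypoosmotic minus the normoosmotic mean, in log2 units. Whether each sample is a separate animal is not stated in the labels, so the p-values cover only the spread among these samples, part of which may be technical.

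An imprinted gene is expressed mainly from the copy inherited from the mother or from the father. H19 and Igf2 lie side by side and share enhancers, which serve H19 on the maternal and Igf2 on the paternal chromosome. Both are strongly expressed in fetal liver and are shut down there after birth. Several imprinted genes act on growth: Igf2 is a fetal growth factor, Igf2r takes its product up for degradation, Grb10 dampens insulin receptor signalling, and Cdkn1c blocks cyclin-dependent kinases. The arrays read the RNA of both parental copies together.

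Several of these genes carry microRNAs, and H19 is the precursor of miR-675. The mature sequences below are shown because these small RNAs would be cut from the transcripts whose levels follow. They come from RefSeq on build GRCr8. The rat miR-675 hairpin, of 84 bases, lies inside H19 at chr1:207161752-207161835 on the minus strand, that of miR-483 inside Igf2 at chr1:207247859-207247931 on the minus strand, and that of miR-770 inside Meg3 at chr6:134298084-134298159 on the plus strand. Capitals mark the seed, bases 2 to 8, which pairs with target RNAs.
rno-miR-675-5p: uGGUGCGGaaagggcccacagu
rno-miR-675-3p: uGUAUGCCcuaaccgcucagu
rno-miR-483-5p: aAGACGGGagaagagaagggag
rno-miR-483-3p: cACUCCUCcccucccgucuugu
rno-miR-770-5p: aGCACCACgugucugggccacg
rno-miR-770-3p: gUGGGCCUgacguggag
The 6 seeds all differ, and 0 other mature rat microRNAs in the table share any of them. The probe sets of the host genes do not measure the mature microRNAs, whose levels are not analysed here.

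H19 was lower in hypoosmotic livers by both of its probe sets. Probe set 10726991 read 7.55, 7.21, 6.69 and 7.70 in normoosmotic replicates 1 to 4 and 6.57, 5.66, 5.62 and 5.14 in hypoosmotic replicates 1 to 4. The highest hypoosmotic value, of replicate 1, lay 0.12 below the lowest normoosmotic value, of replicate 3. The group means were 7.29 ± 0.45 and 5.75 ± 0.60 (SD, n = 4 each), a difference of −1.54 with a standard error of 0.28, or 2.91-fold lower. H19 was taken up because this difference was already known, so it is given as a description without a test. In whole tissue, fewer cells of a type and less RNA per cell cannot be told apart.

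Probe set 10726995 of H19 read 6.86, 6.50, 6.21 and 7.17 in normoosmotic and 6.07, 5.67, 5.95 and 5.34 in hypoosmotic replicates 1 to 4. These groups did not overlap either, as in the 4.24% of all probe sets with every hypoosmotic array lower, and normoosmotic replicate 4 was again the highest and hypoosmotic replicate 4 the lowest of all 8 arrays. The order of the 4 normoosmotic arrays was the same in both probe sets. In the hypoosmotic group replicates 2 and 3 changed places. The difference was −0.93 ± 0.21 (SE), smaller than that of the other probe set. Both probe sets are assigned to one H19 sequence entry, and which part of the transcript each covers is not given in the sources used here.

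**Figure D1:**
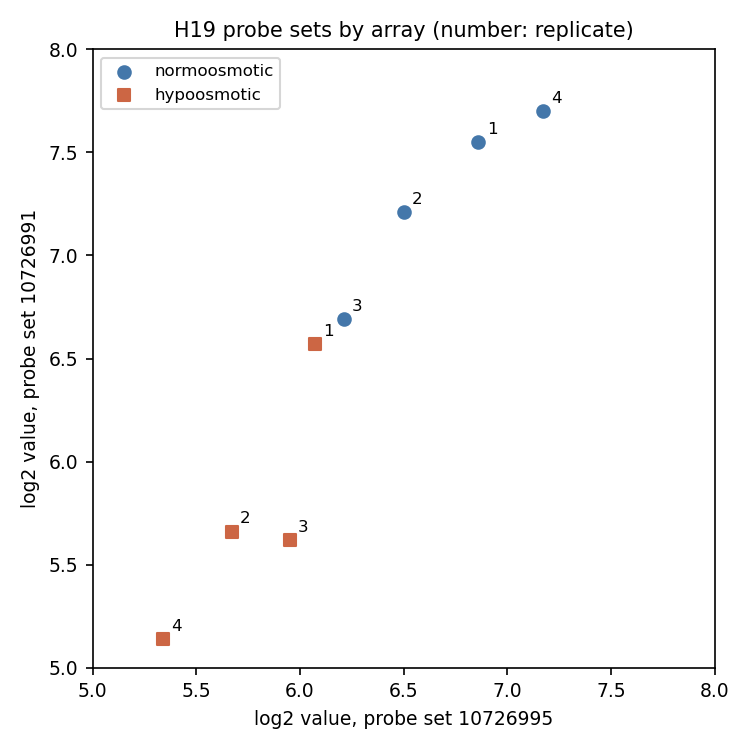
Log2 values of H19 by array, probe set 10726995 on the horizontal and 10726991 on the vertical axis, with the replicate number beside each point. The 4 normoosmotic arrays lie above and to the right of the 4 hypoosmotic ones, and the nearest pair is normoosmotic replicate 3 and hypoosmotic replicate 1.

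H19 also varied widely within each group. The SD within groups, pooled over both, was 0.53 for probe set 10726991, larger than that of 99.1% of the named genes, against a median of 0.19 over all genes. For the other 8 measured members the pooled SD lay between 0.16 for Igf2r and 0.31 for Mest. Leaving out each array in turn moved the H19 difference between −1.34, without hypoosmotic replicate 4, and −1.81, without hypoosmotic replicate 1.

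Beside H19, 0 of the 8 other measured members passed the test over all genes (limma, Benjamini-Hochberg adjusted p under 0.05), where 287 of 14506 genes, 1.98%, did. At an unadjusted p under 0.05 there was 1 of the 8, Igf2r, against 2113 of all genes. Their median change was 0.15, beside 0.04 over all genes, with 6 above 0 and 2 below. No 95% interval among the 8 reached below −0.39 or above 0.70. In 1 of the 8, again Igf2r, the groups did not overlap, as in 8.27% of all genes and, with the hypoosmotic group higher, in 3.21%.

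**Figure D2:**
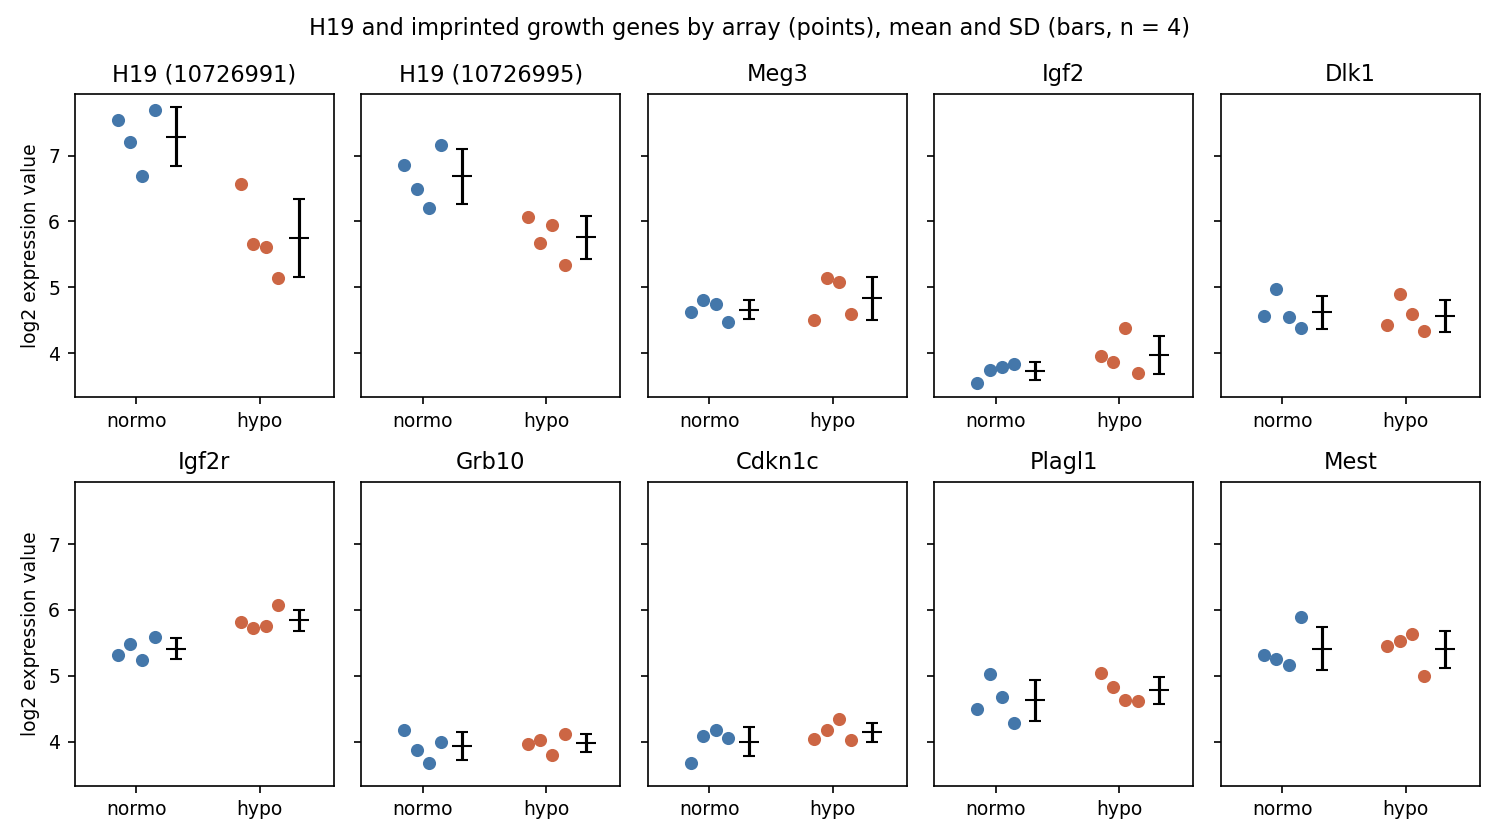
Log2 expression values of the 9 measured members by array, 4 normoosmotic (blue) and 4 hypoosmotic (orange), with the mean and SD as bars beside the points. The groups are apart in both H19 panels and in Igf2r, and overlap in the other 7 panels.

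Among the ligand genes, Igf2, the neighbour of H19, read 3.54, 3.75, 3.79 and 3.84 in normoosmotic and 3.96, 3.87, 4.38 and 3.70 in hypoosmotic replicates 1 to 4. Only hypoosmotic replicate 3 stood clearly above the rest, and replicate 4 lay within the normoosmotic range. The change of Igf2 was 0.25 (95% interval −0.07 to 0.56; limma, adjusted p = 0.488), and it was 0.11 when hypoosmotic replicate 3 was left out. Dlk1, which encodes a membrane protein related to Notch ligands, read 4.57, 4.97, 4.55 and 4.38 in normoosmotic and 4.43, 4.90, 4.60 and 4.34 in hypoosmotic replicates 1 to 4. Its ranges nearly coincided, with a change of −0.05 (−0.38 to 0.28; adjusted p = 0.926) that turned to 0.07 when normoosmotic replicate 2 was left out and to 0.03 when hypoosmotic replicate 4 was.

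The receptor gene Igf2r had the largest change of the 8. It read 5.32, 5.49, 5.24 and 5.59 in normoosmotic and 5.81, 5.72, 5.76 and 6.08 in hypoosmotic replicates 1 to 4. Every hypoosmotic array lay above every normoosmotic one, by 0.13 at the closest. The means were 5.41 ± 0.16 and 5.84 ± 0.16 (SD, n = 4 each), a change of 0.43 ± 0.12 (SE; interval 0.17 to 0.70) that did not pass over all genes (limma, adjusted p = 0.0971, range 0.0532 to 0.266 over 16 alternatives).

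Clock genes separate the normoosmotic arrays, and their values are given beside those of Igf2r. A clock score was computed as the mean of the clock activators Bmal1 and Npas2, from which the mean of Dbp and Per3 was subtracted. It was −2.81 and −3.38 in normoosmotic replicates 1 and 3, which had the lower Igf2r values, and 1.26 and 1.49 in replicates 2 and 4. In hypoosmotic replicates 1 to 4 it was 1.38, 1.09, −0.52 and −0.06, and there Igf2r was highest in replicate 4 and did not follow the score. With this score in the model the change of Igf2r was 0.37 (limma, adjusted p = 0.258), and that of H19 −1.71 for probe set 10726991 and −1.04 for 10726995. Any part of the clock in these changes was not tested.

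The promoter window of Igf2r is shown because it is the member with the largest change after H19 and holds the E-box, CACGTG, a hexamer that many transcription factors bind. It runs from 250 bases before to 50 after the start of the gene, at chr1:50526628-50526927 on the plus strand of GRCr8 (RefSeq), with the E-boxes in capitals.
Igf2r promoter: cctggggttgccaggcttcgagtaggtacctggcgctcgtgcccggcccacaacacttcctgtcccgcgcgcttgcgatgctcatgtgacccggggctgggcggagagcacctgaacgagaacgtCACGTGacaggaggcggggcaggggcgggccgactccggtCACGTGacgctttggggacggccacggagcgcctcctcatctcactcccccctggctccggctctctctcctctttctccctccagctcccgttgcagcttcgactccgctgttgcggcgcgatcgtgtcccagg
The first base of each of the 2 E-boxes lies 125 and 85 bases before the start. Of the 9 measured members 7 had promoter windows in the table, 8 windows in all since Igf2 has 2 starts, and H19 and Cdkn1c were not matched. On either strand CACGTG was found in 2 of the 8 windows, those of Igf2r and Plagl1, and in 6.42% of all 33469 windows of this length. TGGAAA, the core of the element bound by Nfat5, was found in 2, of Meg3 and of 1 Igf2 start, against 22.7% of all. GGGGCCCC, a core bound by Plagl1, was found in 0 of the 8 and in 0.858% of all, and CCAAT in 1, that of Meg3, and in 37.5%. The windows of Dlk1 and Grb10 held 45 and 44 CpG dinucleotides, and those of Igf2r and Plagl1 30 and 29. The median of all windows was 7. CACGTG itself holds a CpG, and its share of 6.42% was not matched for CpG content. A match is a run of letters and no evidence of binding.

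Grb10, the adaptor gene, read 4.18, 3.87, 3.68 and 4.0 in normoosmotic and 3.97, 4.02, 3.80 and 4.12 in hypoosmotic replicates 1 to 4. All 4 hypoosmotic values lay inside the normoosmotic range. The change was 0.05 (95% interval −0.23 to 0.32; limma, adjusted p = 0.92), and it was −0.02 after quantile normalization. Cdkn1c, which lies in the neighbouring imprinted domain on the same chromosome as H19, read 3.68, 4.08, 4.18 and 4.05 in normoosmotic and 4.04, 4.17, 4.34 and 4.03 in hypoosmotic replicates 1 to 4. Only normoosmotic replicate 1 lay apart, below the others, and the change was 0.15 (−0.14 to 0.43; adjusted p = 0.678). When that array was left out the change of Cdkn1c was 0.04, and it was 0.08 when hypoosmotic replicate 3 was.

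Plagl1 encodes a zinc finger factor that is known to act on H19 and Igf2. It read 4.50, 5.03, 4.68 and 4.29 in normoosmotic and 5.05, 4.83, 4.63 and 4.61 in hypoosmotic replicates 1 to 4. The groups overlapped widely, with a change of 0.15 (95% interval −0.19 to 0.50; limma, adjusted p = 0.728). Leaving out single arrays moved the change of Plagl1 between 0.04, when normoosmotic replicate 4 was left out, and 0.29, when normoosmotic replicate 2 was, and it was 0.07 when hypoosmotic replicate 1 was. Meg3, the noncoding RNA beside Dlk1, read 4.62, 4.81, 4.74 and 4.47 in normoosmotic and 4.51, 5.14, 5.08 and 4.59 in hypoosmotic replicates 1 to 4. Hypoosmotic replicates 2 and 3 stood above all normoosmotic arrays and the other two did not. The change of Meg3 was 0.17 (−0.17 to 0.51; adjusted p = 0.685), and single arrays moved it between 0.07, when hypoosmotic replicate 2 was left out, and 0.28, when hypoosmotic replicate 1 was.

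Mest, which encodes a hydrolase-like membrane protein, read 5.32, 5.26, 5.17 and 5.90 in normoosmotic and 5.45, 5.53, 5.63 and 5.0 in hypoosmotic replicates 1 to 4. Replicate 4 was the highest array of the normoosmotic and the lowest of the hypoosmotic group. The change was −0.01 (95% interval −0.39 to 0.37; limma, adjusted p = 0.99), and it was 0.01 after quantile normalization, 0.03 with array weights, and 0.15 and 0.12 without replicate 4 of the normoosmotic or the hypoosmotic group.

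By parental origin, as known from rodents, the maternally expressed members beside H19 are Meg3, Igf2r, Cdkn1c and Grb10, with changes of 0.17, 0.43, 0.15 and 0.05. The paternally expressed ones are Igf2, Dlk1, Plagl1 and Mest, with changes of 0.25, −0.05, 0.15 and −0.01. None of the 9 lay among the dimmest 25% of genes. Igf2 was the dimmest, with a mean over the 8 arrays of 3.85, brighter than that of 36.9% of genes.

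The genes around H19 on the chromosome were taken in RefSeq order. Of the 10 measured genes on each side, 0 of 20 passed the test (limma, smallest adjusted p = 0.0757), where 1.98% of all genes did. At an unadjusted p under 0.05 there were 2, against 2113 of all 14506 genes. The median change of the 20 was 0.13, and they lay between −0.47 for the phosphatase gene Dusp8 and 0.39 for the insulin gene Ins2. On the side of Igf2 the run is Igf2, Ins2, Th, Ascl2, Tspan32, Cd81, Tssc4, Kcnq1, Cdkn1c and Slc22a18, of which Tssc4 had a change below 0, at −0.09. Mrpl23 and Tnnt3, the nearest measured genes on the other side, had changes of 0.17 and 0.11.

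The other imprinted domain with 2 members, that of Dlk1 and Meg3, held a gene that rose. Dio3, which encodes the deiodinase that inactivates thyroid hormone, is the next measured gene after Meg3 in RefSeq order. It read 3.19, 3.63, 3.53 and 3.36 in normoosmotic and 4.12, 4.66, 3.90 and 4.38 in hypoosmotic replicates 1 to 4. These values are dim, with a mean of 3.85, brighter than that of 36.7% of genes, and no detection call was used. The groups did not overlap, as in the 3.21% of all genes with every hypoosmotic array higher. The rise was 0.84 ± 0.16 (SE; limma, adjusted p = 0.0199). The call was lost when normoosmotic replicate 1 (adjusted p = 0.0663) or hypoosmotic replicate 2 (0.0695) was left out and when the clock score entered the model (0.0649). Of the 20 measured genes around Dlk1, 2 passed, where 1.98% of all genes did. In 6 of the 20 the groups did not overlap, a larger share than the 8.27% of all genes. The other gene that passed was the chaperone gene Hsp90aa1, which fell by 0.48.

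**Figure D3:**
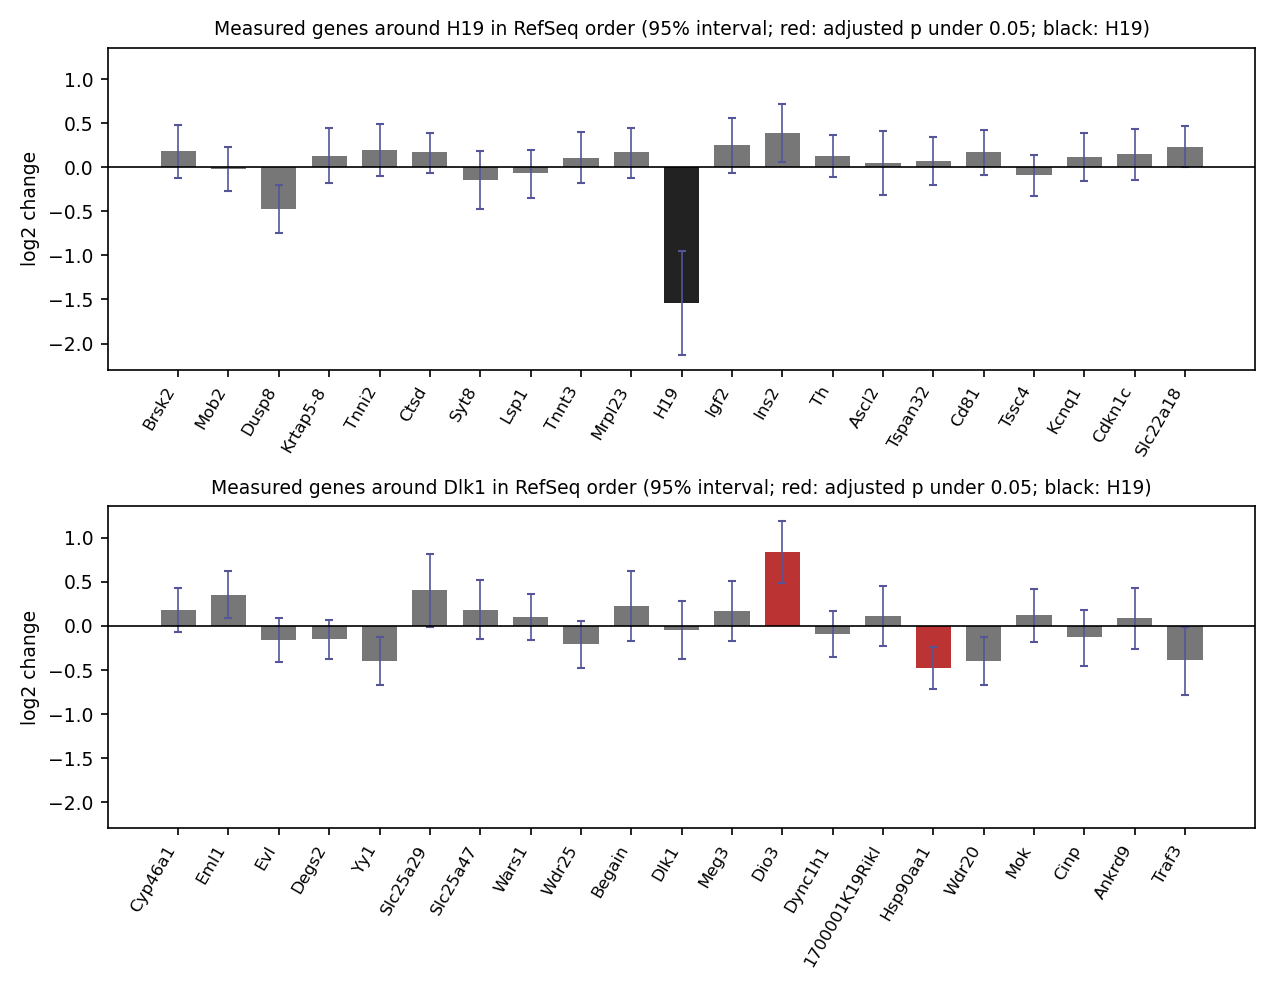
Log2 change, hypoosmotic minus normoosmotic, of the 10 measured genes on each side of H19 (top) and of Dlk1 (bottom) in RefSeq order, with 95% intervals as error bars. H19 (black) stands at −1.54 among neighbours between −0.47 and 0.39, and Dio3 (red) at 0.84. The interval of H19 is a description and not a test, since H19 was chosen for its known difference.

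Of 57 other imprinted genes listed, 42 were measured. Dio3 was the 1 called higher, where 0.558% of all genes were, and 0 were called lower, with a median change of 0.04 that equals the median over all genes. Ins2, which encodes insulin, had the largest uncalled change above 0, at 0.39 (limma, adjusted p = 0.245). Its values are dim, with a mean of 3.67, brighter than that of 33.7% of genes. Blcap had the largest uncalled change below 0, at −0.53 (limma, adjusted p = 0.131). Blcap passed without hypoosmotic replicate 4 (adjusted p = 0.0413).

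The insulin-like growth factor system was measured by 20 of 24 listed genes, with a median change of −0.04. Igfbp1, a liver-made binding protein of these factors, was the 1 called, where 1.42% of all genes were called lower, and fell by 0.65 ± 0.10 (SE; limma, adjusted p = 0.0067). It read 12.16, 12.02, 12.13 and 12.14 in normoosmotic and 11.46, 11.44, 11.40 and 11.53 in hypoosmotic replicates 1 to 4, with a tight spread in each group. Igf1, the circulating growth factor made by adult liver, had a change of −0.06 (−0.30 to 0.18), which was 0.02 after quantile normalization. Igf1r, the signalling receptor of both growth factors, had one of 0.15 (−0.15 to 0.44). The changes were 0.24 for Igfbp4 and −0.21 for Pappa, a protease that cuts it, the largest uncalled ones in each direction. Igfbp2 was at −0.11 (−0.65 to 0.43) and Igfbp3 at 0.12 (−0.28 to 0.51), and each crossed 0 when single arrays were left out.

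Genes that set or keep imprints were measured by 17 of 26 listed, and 6 of the 17 had a change above 0. By the test 4 were called lower and 0 higher, where 1.42% of all genes were called lower and 0.558% higher. The median change was −0.22. Eed, a subunit of the Polycomb complex that methylates histone H3, fell by 1.04 ± 0.17 (SE; limma, adjusted p = 0.00936). It read 6.63, 6.32, 6.64 and 6.09 in normoosmotic and 5.70, 5.28, 4.97 and 5.56 in hypoosmotic replicates 1 to 4. Smc3, a core subunit of cohesin, fell by 0.67 ± 0.12 (adjusted p = 0.0179), Arid4a by 0.69 ± 0.13 (0.0198) and Arid4b by 0.53 ± 0.11 (0.0287). The 2 Arid4 genes encode chromatin proteins that bind the retinoblastoma protein.

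Other factors of the same list did not pass the test. Ctcf, which insulates Igf2 from the shared enhancers on the maternal chromosome, had a change of 0.15 (95% interval −0.09 to 0.40; limma, adjusted p = 0.592), and Dnmt1, the maintenance DNA methyltransferase, one of 0.10 (−0.17 to 0.38; 0.776). Smc1a, the partner of Smc3 in cohesin, was at −0.41 (0.0916) and Dnmt3l at 0.36 (0.215). Dnmt3l passed when hypoosmotic replicate 4 was left out, at 0.50 (adjusted p = 0.0441). The count of 4 called genes went down to 1 when normoosmotic replicate 1 or 3 or hypoosmotic replicate 2 was left out, and when the model held the clock score. It went down to 2 when hypoosmotic replicate 1 or 3 was left out. Eed kept its call in all 16 alternatives.

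Of the genes of fetal liver and their regulators, 21 of 26 were measured, with 1 called higher, 1 called lower and a median change of −0.10, where 0.558% of all genes were called higher and 1.42% lower. Foxa2, a pioneer transcription factor of the liver, rose by 0.73 ± 0.15 (SE; limma, adjusted p = 0.0237). It read 5.03, 5.08, 4.92 and 5.31 in normoosmotic and 5.42, 5.81, 5.95 and 6.07 in hypoosmotic replicates 1 to 4. Elavl1, the RNA-stabilising protein HuR that is known to bind H19, fell by 0.61 ± 0.13 (adjusted p = 0.0264). It read 8.47, 8.16, 8.30 and 8.33 in normoosmotic and 7.58, 7.52, 7.75 and 7.97 in hypoosmotic replicates 1 to 4, and neither gene's groups overlapped, as in 8.27% of all genes.

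The genes that are silenced together with H19 after birth had intervals that spanned 0. Afp, the fetal serum protein, had a change of 0.12 (95% interval −0.21 to 0.46; limma, adjusted p = 0.785) and Gpc3, a fetal proteoglycan gene, one of −0.08 (−0.42 to 0.25; 0.867), which was 0.02 without hypoosmotic replicate 3. Zhx2, which represses Afp, Gpc3 and H19 in adult mouse liver, was at 0.08 (−0.19 to 0.35; 0.832). The largest uncalled changes of this list were −0.44 for the microprocessor gene Dgcr8 (0.0731) and 0.35 for the surface protein gene Cd24 (0.314). The call of Foxa2 was lost in 6 of 16 alternatives (largest adjusted p = 0.0831) and that of Elavl1 in 7 (0.1). Both calls were lost without normoosmotic replicate 1 or 3 or hypoosmotic replicate 2 or 3, and when the model held the clock score, that of Foxa2 also without normoosmotic replicate 2, and that of Elavl1 also without normoosmotic replicate 4 or hypoosmotic replicate 1.

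**Figure D4:**
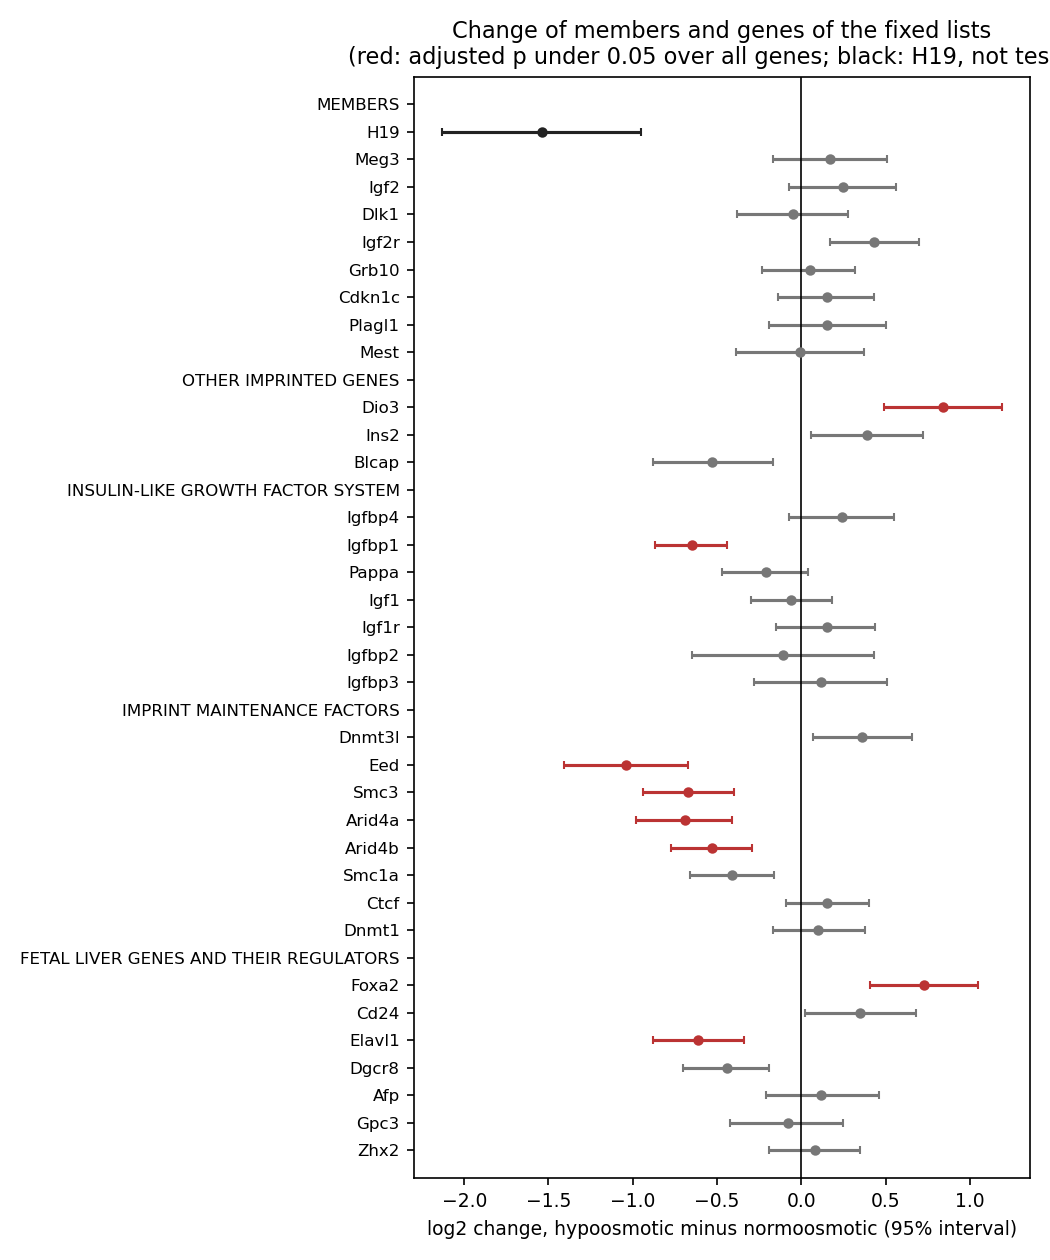
Log2 change, hypoosmotic minus normoosmotic, with 95% intervals for the 9 measured members and for named genes of 4 lists. H19 (black) was chosen for its known difference, so its interval is a description and not a test. Red genes had an adjusted p under 0.05, and the intervals of Meg3, Igf2, Dlk1, Grb10, Cdkn1c, Plagl1 and Mest include 0.

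The genes most like H19 over the 8 arrays were Cep85l, G6pc1, Gstm3, Nfat5 and G0s2. Likeness was the root mean square distance between the values of 2 genes after each was centred on its own mean of the 8 arrays, and the distances were 0.45, 0.48, 0.49, 0.50 and 0.50 log2 units. They were picked for that pattern, so their values are given without a test. Cep85l read 7.28, 6.62, 6.68 and 7.06 in normoosmotic and 6.19, 5.54, 5.80 and 5.98 in hypoosmotic replicates 1 to 4. G6pc1, the glucose-releasing phosphatase of the liver, read 9.67, 9.38, 9.12 and 10.40 and then 9.22, 8.09, 8.98 and 8.65. Like H19 it was highest in normoosmotic replicate 4, lowest of that group in replicate 3, and highest of the hypoosmotic group in replicate 1. The other measured members lay farther from H19, between 0.85 for Mest and 1.10 for Igf2r.

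The markers of liver and other cell types gave 0 called genes in 8 lists, where 1.98% of all genes were called. The 8 hepatocyte markers had means between 11.62 and 13.05 and a median change of −0.04. The median changes were −0.00 over 11 stellate cell and fibroblast markers, 0.14 over 5 of sinusoidal endothelium, 0.12 over 6 of Kupffer cells and 0.09 over 5 of cholangiocytes. H19 is also abundant in skeletal muscle and adrenal gland. The 12 muscle markers had a median change of 0.07, and their summed level spanned 7.35 to 7.62 in normoosmotic and 7.31 to 7.63 in hypoosmotic arrays (log2). The 8 adrenal markers had a median change of 0.02 and summed levels of 8.63 to 9.80 and 8.67 to 9.46. That sum is mostly the steroid hydroxylase gene Cyp17a1, with a mean of 8.88 and a change of 0.06. The other adrenal markers were dim, with means of 3.95 for Star, 3.84 for Akr1b7 and 2.76 for Mc2r. Cyp11a1, Cyp11b1, Cyp11b2 and Cyp21a1 had means of 2.52, 1.90, 2.63 and 2.30. Akr1b7 had the largest change of the list, at −0.66 (limma, adjusted p = 0.543), with 5.91 in normoosmotic replicate 3. The 4 erythroid markers had a median change of −0.12, and 2 of them had an unadjusted p under 0.05, both with lower hypoosmotic means. Over all genes 2113 of 14506 had such a p. So had 1 stellate cell marker, Reln, at −0.46 (limma, adjusted p = 0.242), and 1 cholangiocyte marker, Spp1, at 0.26 (adjusted p = 0.329). Hbb, a haemoglobin chain, was at −0.85 (limma, adjusted p = 0.279), with overlapping groups. Alas2, the erythroid enzyme of heme synthesis, was at −0.23 (adjusted p = 0.337), with groups that did not overlap, as in 8.27% of all genes. The summed erythroid levels were 6.79 to 8.42 and 6.59 to 7.66. The part of these cell types in the H19 difference was not tested.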

How the data were processed

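The authors deposited one table of log2 expression values for 27596 probe sets on 8 arrays. They had used Transcriptome Analysis Console 4.0, per the submitters' processing notes, and how probes were summarised and arrays normalized was not given in the sources used here. That the scale is log2 was read from the values, between 0.88 and 13.26, with array medians of 4.05 to 4.16. Total RNA had been isolated with Trizol and labelled with biotin, per the labels' protocols. The number of arrays limits the precision, and no detection call was used.

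Probe sets with 1 symbol (15310) were named through the platform annotation, updated by gene ID with RefSeq (GRCr8). The brightest probe set of each gene, by its mean of all arrays, was kept, giving 14506 genes. The groups were compared by limma 3.58.1 under R 4.3.3, with lmFit and eBayes (two-sided, no covariate). Benjamini-Hochberg adjustment was over all genes, or over all probe sets for the 2 H19 probe sets. No p-value of H19 is given, since H19 was chosen for its known difference. The fits were tested on simulated data, where 32, 88.6 and 97.4% of changes of 0.5, 1 and 1.5 log2 units were recovered. Changes as small as those of the other members can thus be missed. The alternatives changed the scaling (quantile normalization, or array medians removed), the filter on dim genes, the prior, the array weights, and the probe sets of a gene. They also took the replicate number as a block, added a clock score to the model, and left out each array. The members, gene lists, markers, motifs and alternatives were chosen with earlier results of these data known. From each list the rule named up to 4 called genes per direction by smallest p, the largest uncalled change each way and 11 fixed genes. Neighbouring genes were added after seeing the data, and Hsp90aa1, Dusp8, Hbb, Alas2, Reln, Spp1, Cyp17a1, Akr1b7, Mrpl23, Tnnt3 and Tssc4 were described after their values were seen.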

Additional observations from a re-analysis of the deposited data

Results flagged for a closer look

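Dnmt3l, a regulator of DNA methylation in germ cells, was the 1 outlier among 74 groups of 4 arrays examined with Dixon's test, where chance flags about 1 in 20. Its value in normoosmotic replicate 2 was 2.48, above the 2.30 to 2.33 of the other normoosmotic arrays, a gap of 0.833 of the group's range, just past the critical value for 4 samples. The probe set is dim.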

How the results depend on the processing

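H19 stayed lower in hypoosmotic arrays in the 15 alternatives run for its probe sets, from −1.81 to −1.34 for 10726991 and from −1.09 to −0.77 for 10726995, and 0 of the 8 other members were called in any of 16. Without single arrays the called genes ranged from 81 to 365 (25 to 100 higher, 56 to 287 lower), and those in the lists from 0 to 2 for other imprinted genes, 1 to 5 for imprint maintenance, 0 to 2 for fetal liver genes and 0 to 1 for cyclin-dependent kinase inhibitors and cyclins. With the clock score as a covariate there were 92 called genes (28 higher, 64 lower) and 0, 1 and 0 in the first 3 of these lists; the cause was not tested. Quantile normalization turned the sign of Grb10 (−0.02), Mest (0.01) and Igf1 (0.02), and array weights that of Mest (0.03), none of them called. Leaving out single arrays turned the sign in Dlk1 (−0.16 to 0.07), Grb10 (−0.04 to 0.13), Mest (−0.09 to 0.15), Igfbp2 (−0.32 to 0.07), Igfbp3 (−0.04 to 0.31) and Gpc3 (−0.19 to 0.02), none of them called. Same-numbered arrays had deviations from their group means that correlated at 0.046, 0.028, 0.083 and 0.173 across genes. The best correlation of normoosmotic replicates 1 to 4 with a hypoosmotic array of another number was 0.051, 0.206, 0.075 and 0.034. The same number was thus lower for replicates 1 and 2 and higher for 3 and 4, which does not settle pairing. The main comparison did not pair the samples. With the replicate block 256 genes were called, H19 stayed at −1.54 and −0.93, and of the named genes Arid4b lost its call (adjusted p = 0.059 by limma). With 4 arrays a group, the intervals of dim genes such as Igf2 (−0.07 to 0.56) leave small changes unresolved.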

Other observations

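The cyclin-dependent kinase inhibitors and cyclins, the family in which Cdkn1c acts, were measured by 16 of 17 listed genes beside it. By limma 0 passed, where 1.98% of all genes did. At an unadjusted p under 0.05 there were 2, against 2113 of all 14506 genes. The median change of the 16 was 0.09. Cdkn1a, the inhibitor p21, read 6.43, 7.36, 6.59 and 7.24 in normoosmotic and 7.44, 7.61, 7.37 and 7.43 in hypoosmotic replicates 1 to 4. Its groups did not overlap, as in 8.27% of all genes, but lay only 0.01 apart at the closest. Its change was 0.56 (95% interval 0.15 to 0.96; limma, adjusted p = 0.162). Its lowest values were those of normoosmotic replicates 1 and 3, the arrays with the lowest clock scores, and with that score in the model the change was 0.34. Any part of the clock in the change of Cdkn1a was not tested. Rb1, the retinoblastoma gene, had the largest change below 0, at −0.61 (adjusted p = 0.114), and was called without hypoosmotic replicate 4 (adjusted p = 0.0233).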
